A study of Mus musculus with 6 samples.

Results

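Described here are 10 genes of the TREM2-dependent, lipid-associated state of macrophages, among 21936 genes measured in sorted mouse macrophages. They were chosen by gene symbol: Trem2, Tyrobp, Gpnmb, Spp1, Cd9, Cd63, Lgals3, Fabp5, Lpl and Plin2, and all 10 were found, with 1 row each. RNA was sequenced in 3 libraries labelled CKO and 3 libraries labelled WT. The CKO libraries are labelled as ALKBH5flox/flox with Lyz2-Cre and APOE-/-, that is, with the RNA demethylase gene Alkbh5 to be deleted in myeloid cells, where the lysozyme locus drives Cre recombinase. The WT libraries are labelled as ALKBH5flox/flox and APOE-/- without Cre. Both groups thus carry the floxed allele and lack Apoe by label, and both had 4 months of high-fat feeding. Age, sex and the tissue from which the macrophages were sorted are not given in the sources used here, nor is it said whether each library came from a separate animal. The p-values thus reflect library-to-library spread alone, and that spread may be technical.

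TREM2 is a surface receptor of macrophages and microglia that binds lipids and lipoproteins. It has no signalling tail of its own and signals through the adaptor TYROBP, also called DAP12, which is phosphorylated and recruits the kinase SYK. In atherosclerotic plaques, adipose tissue and the brain, macrophages that take up lipid switch on a shared programme around this receptor. The programme includes the lysosomal glycoprotein GPNMB, the secreted osteopontin encoded by Spp1, the tetraspanins CD9 and CD63, galectin-3, and proteins that release, carry and store fatty acids.

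Promoter sequence from RefSeq (GRCm38.p6) was at hand for 7 of the 10 genes: Trem2, Gpnmb, Spp1, Cd9, Cd63, Lgals3 and Plin2. Printed are the 250 bases before the annotated start, 5′ to 3′ on the gene's own strand, for Trem2, the gene with the largest change, for Plin2, the droplet coat gene, and for Spp1, the gene with the smallest change. Capitals mark matches to the motifs named after them. The windows are chr17:48346151-48346400 on the plus strand for Trem2, chr4:86670060-86670309 on the minus strand for Plin2, and chr5:104434861-104435110 on the plus strand for Spp1.
Trem2: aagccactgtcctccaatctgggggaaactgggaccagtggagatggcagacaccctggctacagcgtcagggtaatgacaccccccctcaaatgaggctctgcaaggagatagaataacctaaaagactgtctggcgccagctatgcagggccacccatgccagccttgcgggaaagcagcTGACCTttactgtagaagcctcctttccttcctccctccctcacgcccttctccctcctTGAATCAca
Plin2: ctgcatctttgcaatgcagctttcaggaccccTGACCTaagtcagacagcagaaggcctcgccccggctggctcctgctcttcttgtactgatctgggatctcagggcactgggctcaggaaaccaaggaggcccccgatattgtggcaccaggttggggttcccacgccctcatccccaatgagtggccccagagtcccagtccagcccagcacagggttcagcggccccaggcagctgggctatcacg
Spp1: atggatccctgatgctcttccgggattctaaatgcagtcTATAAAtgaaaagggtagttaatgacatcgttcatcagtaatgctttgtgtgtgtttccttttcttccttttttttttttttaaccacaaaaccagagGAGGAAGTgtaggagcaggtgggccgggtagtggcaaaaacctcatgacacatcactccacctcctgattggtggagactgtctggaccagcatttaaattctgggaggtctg

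In these windows Trem2 held TGAATCA 9 bases before the start. It matches TGANTCA, a loose AP-1 pattern that allows any base at N. Trem2 also held the nuclear receptor motif AGGTCA, read on the other strand, 68 bases before the start. Plin2 held the same motif, also on the other strand, 218 bases before its start. Spp1 held the PU.1 match GAGGAAGT at 113 bases and TATAAA at 211 bases before the start. Searched on both strands, AGGTCA was in 14.0% of all 32851 RefSeq windows of this length, TGANTCA in 6.75%, GAGGAAGT in 2.44% and TATAAA in 12.4%. Among the other windows, Cd9 held a match to a loose NF-kB pattern on the other strand, 229 bases before its start. This pattern was found in 1.41% of all windows. It allows any base at some positions, so the match is not shown to be a consensus NF-kB site. The E-box CACGTG of the factors TFEB and MITF, found in 6.02% of all windows, its longer form TCACGTG and the M-box TCATGTG were in 0 of the 8 windows of these 7 genes, Spp1 having 2. These matches describe letters in a short window, and binding was not measured.

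The libraries held 15422154 to 17802617 reads in the group labelled CKO and 16660206 to 18418903 in the group labelled WT, recovered from the deposited values. FPKM, the deposited unit, is a read count divided by gene length, as listed, and by the reads that the library has in genes. Alkbh5, the gene to be deleted, read 9.15, 8.61 and 8.50 FPKM in the libraries labelled CKO, against 3.77, 3.95 and 3.88 in those labelled WT, opposite to the label. Apoe, which both labels give as absent, had 95.02 ± 4.69 FPKM under the label CKO and 1635 ± 29.3 under WT (SD, n = 3 each). Whole-gene counts cannot show whether either transcript was intact. Every direction below therefore refers to the libraries as labelled and not to a checked genotype.

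All 8 macrophage markers examined reached 1 FPKM, among them Csf1r, the receptor for macrophage growth factor, and Adgre1, the F4/80 antigen. Of these 8 markers 5 (62.5%) were called higher in CKO and 3 (37.5%) called lower, beside 30.5% and 50.5% of all tested genes. Their summed level was 9217 to 9644 FPKM in the libraries labelled CKO, against 16351 to 18265 in those labelled WT. Most of that sum was Lyz2, whose locus carries the Cre and which read 6556 ± 211 FPKM under CKO and 15116 ± 992 under WT (SD, n = 3 each). Neutrophil markers summed to 68.2 to 83.6 FPKM in the libraries labelled CKO and to 613 to 896 in those labelled WT, and the 6 tested of 9 were lower, 3 of them having passed the filter through the WT libraries alone. Platelet markers, a lineage that also carries CD9 and CD63, summed to 120.2 to 132 FPKM under CKO and to 184 to 202 under WT. Of these 6 markers 4 (66.7%) were lower. Adipocyte markers, a lineage rich in Lpl, summed to 2.57 to 2.67 FPKM under CKO and to 2.38 to 2.65 under WT, with Plin1, Cidec and Lep at 0 in every library. Osteoclast markers, a lineage that makes Spp1 and Gpnmb, summed to 63.0 to 68.1 FPKM under CKO and to 44.4 to 47.4 under WT, with 2 of 3 tested higher. Melanocyte, epithelial, smooth muscle and fibroblast, mast cell and basophil, and T and B cell markers summed to at most 3.72 FPKM in any library labelled CKO and at most 5.78 in any labelled WT. Tyr, Dct, Tyrp1 and Krt8 were at 0 in every library. The part of these other cells in the results that follow was not tested.

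All 10 genes were lower in the libraries labelled CKO. Each was called by limma at a Benjamini-Hochberg adjusted p under 0.05 over all genes tested, where 50.5% of the 9953 tested genes were called lower and 30.5% higher, 81.1% in all. In none of the 10 did the groups overlap, and 51.3% of all tested genes were lower without overlap and 31.2% higher without overlap. The median log2 change of the 10 genes was -1.53, against -0.14 over all genes tested. All 10 passed the filter of 1 FPKM in at least 3 libraries, and each reached it in all 6. In bulk RNA, fewer cells of a type and less RNA per cell cannot be told apart.

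**Figure D1:**
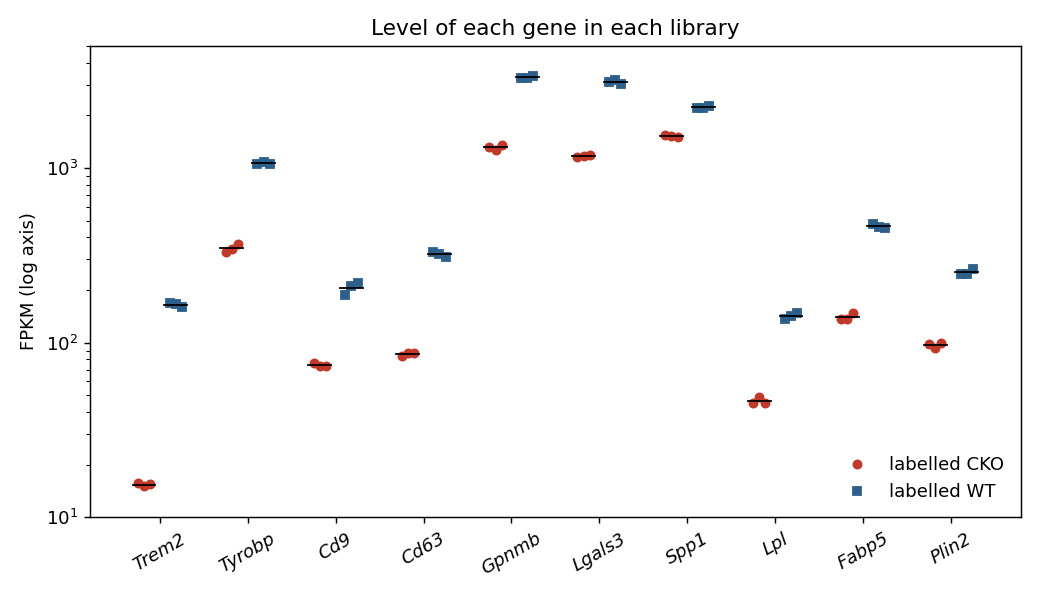
FPKM of the 10 genes (log axis) in each library, with 3 libraries labelled CKO (circles) left of 3 labelled WT (squares) and a line at each group mean. For each gene every CKO value lies below every WT value, from 15.4 against 164 FPKM on average for Trem2 to 1519.7 against 2223 for Spp1.

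Trem2, the receptor (chromosome 17, 48346401 to 48354147, plus strand, mm10), had the largest change. It read 15.6, 15.01 and 15.5 FPKM in the libraries labelled CKO, against 168, 166 and 160.1 in those labelled WT. The lowest WT value was 10.3 times the highest CKO value. It changed by -3.34 on the log2 scale (limma adjusted p = 9.52e-15, SE 0.033), a mean 10.7-fold lower, and it ranked 27 of 9953 tested genes from the most negative change. Its depth was 1145 to 1363 reads per library labelled CKO and 13195 to 15280 per library labelled WT.

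Tyrobp, the signalling adaptor (chromosome 7, 30413760 to 30417585, plus strand), read 329.9, 341 and 366 FPKM in the libraries labelled CKO and 1060.0, 1083 and 1057 in those labelled WT. It thus stood at 32.4% of the WT mean, while its receptor Trem2 stood at 9.34%. Tyrobp changed by -1.62 on the log2 scale (limma adjusted p = 4.27e-12, SE 0.036). Within each library the ratio of Trem2 to Tyrobp, which does not depend on how libraries are scaled, was 0.0473, 0.0440 and 0.0423 under the label CKO and 0.158, 0.153 and 0.152 under WT. The groups did not overlap, and the log2 ratio was lower by a difference of -1.79 (exact permutation test, two-sided, p = 0.1, the smallest that 3 against 3 libraries allow).

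The tetraspanins, membrane proteins that organise other proteins in the plasma membrane and in vesicles, were both lower. Cd63, a resident of late endosomes and of exosomes (chromosome 10, 128900989 to 128912822, plus strand), read 83.9, 87.1 and 87.4 FPKM in the libraries labelled CKO and 329, 320.5 and 311 in those labelled WT. After Trem2 it had the most negative change of the 10, and changed by -1.88 on the log2 scale (limma adjusted p = 4.04e-13, SE 0.031). Cd9, a surface tetraspanin used to sort lipid-associated macrophages (chromosome 6, 125460266 to 125494791, minus strand), read 76.0, 73.8 and 73.0 FPKM under CKO and 188, 211 and 219. under WT The WT libraries were the most spread here, with a coefficient of variation of 7.62%, the highest of any of the 10 genes in either group, but all stood at least 2.48 times above the highest CKO library. It changed by -1.46 on the log2 scale (limma adjusted p = 1.35e-10, SE 0.048). An antisense gene, Gm26728, shares exon bases with Cd9, and the strand setting of the counting is not given in the sources used here.

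Gpnmb and Lgals3 were among the most abundant mRNAs of these cells. Gpnmb, a glycoprotein of lysosomes and melanosomes (chromosome 6, 49036546 to 49070929, plus strand), ranked 18 of 21936 genes by mean FPKM under the label CKO and 8 under WT. It read 1325, 1273 and 1360.0 FPKM under CKO and 3262, 3291 and 3343 under WT, and it changed by -1.32 on the log2 scale (limma adjusted p = 3.29e-12, SE 0.028). Lgals3, which encodes galectin-3, a lectin that gathers on damaged lysosomes and is also secreted (chromosome 14, 47367751 to 47386160, plus strand), ranked 22 under CKO and 9 under WT. It read 1161, 1169 and 1188 FPKM in the libraries labelled CKO and 3096, 3197 and 3039 in those labelled WT. It changed by -1.41 on the log2 scale (limma adjusted p = 1.06e-12, SE 0.026), and the 95% intervals of Gpnmb and Lgals3 overlapped.

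Spp1, which encodes osteopontin, a secreted ligand of integrins and CD44 (chromosome 5, 104435118 to 104441050, plus strand), changed least. It read 1542, 1517 and 1500.1 FPKM in the libraries labelled CKO and 2207, 2191 and 2272 in those labelled WT, so 68.4% of the WT mean was left. It changed by -0.55 on the log2 scale (limma adjusted p = 2.22e-09, SE 0.025), and its 95% interval of -0.60 to -0.49 overlapped that of none of the other 9 genes. By level it ranked 1 of the 10 under CKO and 3 under WT. Of the summed FPKM of the 10 genes, Spp1 made up 31.6% ± 0.717 in the libraries labelled CKO and 19.8% ± 0.389 in those labelled WT (SD, n = 3 each). The annotated gene Gm42793 shares exon bases with Spp1 on the same strand.

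The 3 genes of fatty acid release, transport and storage were all lower. Lpl encodes lipoprotein lipase, which frees fatty acids from triglyceride-rich lipoproteins (chromosome 8, 68880491 to 68907448, plus strand). It read 44.8, 49.0 and 45.0 FPKM in the libraries labelled CKO and 136, 142 and 148 in those labelled WT, and changed by -1.60 on the log2 scale (limma adjusted p = 2.03e-11, SE 0.042). Fabp5, a carrier of fatty acids in the cytosol (chromosome 3, 10012548 to 10016607, plus strand), read 137, 136 and 147 FPKM under CKO and 477, 456 and 454 under WT, and changed by -1.72 on the log2 scale (limma adjusted p = 2.13e-12, SE 0.035). Plin2, the coat protein of lipid droplets in foam cells (chromosome 4, 86648386 to 86670060, minus strand), read 98.7, 93.0 and 99.2 FPKM under CKO and 248, 246 and 263. under WT It changed by -1.37 on the log2 scale (limma adjusted p = 1.98e-11, SE 0.036). The 95% intervals of Lpl and Fabp5 overlapped, and those of Fabp5 and Plin2 did not. As shares of the WT mean, 32.6% of Lpl, 30.3% of Fabp5 and 38.4% of Plin2 were left. Processed pseudogenes of Fabp5, Cd63 and Cd9 are annotated and were not analysed here. How reads that match both copies were counted is not given in the sources used here.

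**Figure D2:**
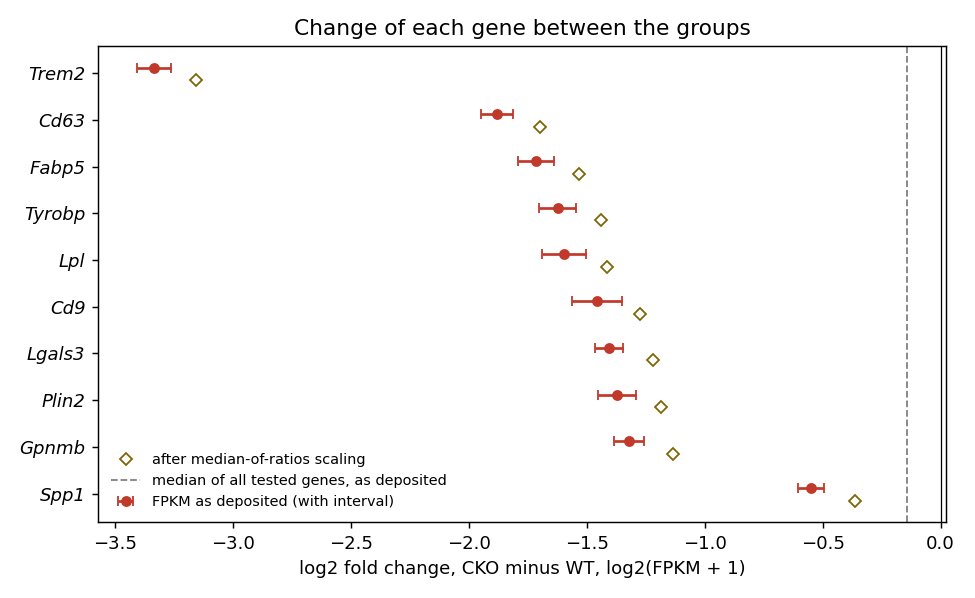
Log2 fold change of each gene, CKO minus WT, on log2(FPKM + 1) from limma with its 95% interval (filled circles), and the same after median-of-ratios scaling (open diamonds). The dashed line is the median of all tested genes, -0.14. All 10 intervals lie left of it, with Trem2 at -3.34 and Spp1 at -0.55 apart from the 8 others at -1.88 to -1.32.

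By change the 10 genes thus fell into an order with Trem2 first and Spp1 last. Between them, the intervals of Cd63 and Fabp5 did not overlap. Each other pair of neighbours, Fabp5 and Tyrobp, Tyrobp and Lpl, Lpl and Cd9, Cd9 and Lgals3, Lgals3 and Plin2, and Plin2 and Gpnmb, had overlapping intervals. The changes of different genes were not tested against each other, so the order within these pairs is not settled. Together the 10 genes made up 1.65% ± 0.0183 of all FPKM in the libraries labelled CKO and 3.97% ± 0.0127 in those labelled WT (SD, n = 3 each). The most abundant 3, Gpnmb, Lgals3 and Spp1, made up 83.3% of that sum under CKO and 76.8% under WT. Trem2 itself was 0.319% of the sum under CKO and 1.46% under WT. After median-of-ratios scaling, which moves the median of all genes by 0.15 on the log2 scale, 51.2% of calls were higher in CKO, against 37.7% as deposited. On that scale all 10 genes were still lower, with Trem2 at -3.16, Spp1 at -0.36 and a median of -1.34.

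The level of a gene per kb depends on the length used. The listed length equals the union of all annotated exons in GENCODE for each of the 10 genes. For Trem2 that is 4946 bases, against 1088 bases for its longest principal coding transcript of 5 exons. Per kb of that transcript, a calculation chosen after the data were seen, Trem2 averaged 69.9 in the libraries labelled CKO and 748 in those labelled WT on the same scale. The listed length was also 3.61 times the principal transcript for Fabp5, 3.32 times for Cd63 and 2.55 times for Lpl. It was 1.09 times for Spp1 and 1.18 times for Tyrobp. Differences between the groups within a gene do not depend on this choice beyond the pseudocount. The order of levels does: in FPKM Trem2 ranked 10 of the 10 under CKO and 9 under WT, and per principal transcript 10 under CKO and 7 under WT. In FPKM the library ranges of neighbours in the order did not overlap in either group. Per principal transcript those of Cd9 and Lpl overlapped in both groups.

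**Figure D3:**
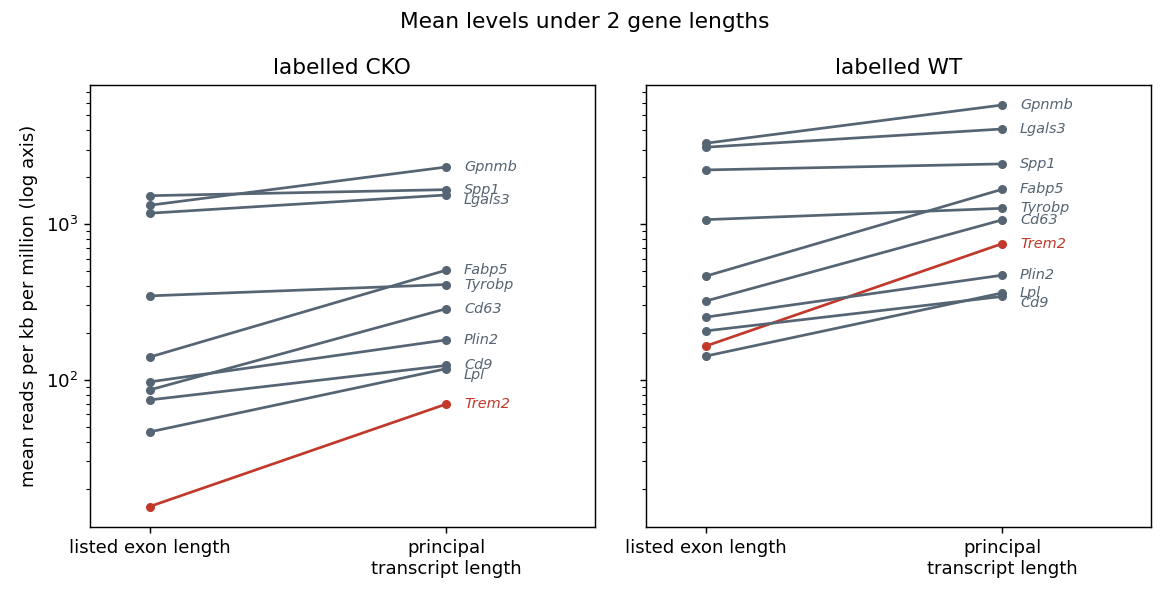
Mean level of each gene (FPKM scale, log axis) with the listed exon length on the left of each panel and the principal transcript length on the right, for the libraries labelled CKO (left panel) and WT (right panel). Trem2, in red, moves from 15.4 to 69.9 in CKO and from 164 to 748 in WT, while Gpnmb is highest per principal transcript in both.

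Partners and relatives of the 10 genes were compared with them. Lists of related genes held 190 genes, and 146 were tested. Of these 42 (28.8%) were called higher in CKO and 89 (61.0%) called lower, beside 30.5% and 50.5% of all tested genes. Their median log2 change was -0.45 as deposited and -0.27 after median-of-ratios scaling, beside -0.14 and 0.01 over all tested genes. Among the called list genes, 9 were under 1 FPKM in every library of one group. They passed the filter only through the group where they were higher, so their tests are not given as support. They do remain in the counts and shares above and in those of each list, 3 as higher and 6 as lower. Some genes are in more than 1 list. Of these lists, those for other lipid-associated macrophage genes, for lysosomal membrane and secretory granule proteins and for tetraspanins held the highest shares of lower genes.

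The first list held receptors and signalling partners of TREM2 and TYROBP and the proteases that shed TREM2. Of 20 genes tested, 8 (40.0%) were called higher and 9 (45.0%) called lower in CKO, beside 30.5% and 50.5% of all tested genes. Their median was -0.14, the same as over all tested genes. After median-of-ratios scaling 9 were higher and 8 lower, with a median of 0.03. On that scale 3874 (38.9%) of all 9953 tested genes were called lower and 4058 higher. Treml4 and Trem1, relatives of Trem2 in the same receptor family, read 5.98 ± 0.519 and 4.08 ± 0.250 FPKM in the libraries labelled CKO and 0.547 ± 0.0825 and 0.441 ± 0.0792 in those labelled WT (SD, n = 3 each). Both were under 1 FPKM in each WT library and passed the filter only through the CKO libraries. Their differences on the log2(FPKM + 1) scale were 2.17 and 1.82, which the pseudocount makes smaller. Further relatives, Trem3 and Treml2, named after their values were seen, were also higher, at 1.39 and 0.39. Cd300lb, a receptor that binds TYROBP, fell by 1.68 on the log2 scale to 36.2 ± 1.44 FPKM, against 118 ± 1.08 in the libraries labelled WT. Plcg2, the phospholipase downstream of SYK, changed by -0.79 (limma adjusted p = 4.78e-10). Syk itself, named after its values were seen, read 116 FPKM under CKO and 86.5 under WT and changed by 0.41. Adam10, a protease that sheds TREM2 from the surface, changed by -0.45, and Adam17, another, read 67.7 FPKM under CKO and 66.4 under WT and was not called. Both were named after their values were seen.

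Of 29 tested genes among 32 others used to mark the lipid-associated state, 23 (79.3%) were lower and 4 (13.8%) higher. Their median was -0.63 as deposited and -0.44 after median-of-ratios scaling. Of all tested genes 50.5% were lower and 30.5% higher. Lipa, the lysosomal lipase that frees cholesterol from its esters, read 80.4 ± 1.605 FPKM in the libraries labelled CKO and 312 ± 8.26 in those labelled WT (log2 change -1.94, limma adjusted p = 2.48e-13). Hexa, a lysosomal hexosaminidase subunit, read 240.1 ± 4.39 FPKM under CKO and 621 ± 18.1 under WT, and Timp2, an inhibitor of matrix proteases, 21.5 ± 0.544 under CKO and 141 ± 8.13 under WT. Apoe, given above, changed by -4.09. Apoc1 and Apoc2, apolipoproteins, had 0 reads over the libraries labelled CKO and 6 and 2 over those labelled WT, too few for a fold. The 4 higher genes were Abca1, a cholesterol exporter, at 1.38, Ctsz, a lysosomal protease, at 0.40, Ftl1, the ferritin light chain, at 0.22 and Npc2, a lysosomal carrier of cholesterol, at 0.21. These 4 were named after their values were seen, and Ftl1 and Npc2 turned negative after quantile normalization.

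Of 17 lipid droplet genes tested besides Plin2, 10 (58.8%) were lower and 4 (23.5%) higher, near the 50.5% and 30.5% of all tested genes. Their median was -0.68 as deposited and -0.51 after median-of-ratios scaling. Acsl1, which activates long-chain fatty acids, read 139 ± 1.02 FPKM in the libraries labelled CKO and 5.53 ± 0.183 in those labelled WT (log2 change 4.43, limma adjusted p = 2.04e-15). Hilpda, an inhibitor of droplet lipolysis, read 35.0 ± 1.78 FPKM under CKO and 3.78 ± 0.370 under WT, a log2 change of 2.91. Nceh1, a hydrolase of cholesterol esters, and Mgll, which breaks down monoglycerides, changed by -2.33 and -2.24 (limma adjusted p = 1.05e-13 and 1.68e-11). Plin1, Cidea and Cidec, coat genes of the adipocyte droplet, were at 0 in all libraries. Plin3, the ubiquitous coat relative of Plin2, read 25.7 FPKM under CKO and 52.1 under WT. The ratio of Plin2 to Plin3 was 3.97, 3.59 and 3.77 in the libraries labelled CKO and 4.80, 4.63 and 5.11 in those labelled WT.

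Of 5 fatty acid-binding genes tested, 2 (40.0%) were higher and 2 (40.0%) lower, beside 30.5% and 50.5% of all tested genes. Their median was 0.08 as deposited and 0.26 after median-of-ratios scaling. Fabp4, the relative of Fabp5 that is shared with adipocytes, read 6.76 ± 0.145 FPKM in the libraries labelled CKO and 39.4 ± 2.14 in those labelled WT, a log2 change of -2.38 (limma adjusted p = 1.39e-12). The ratio of Fabp5 to Fabp4 was 20.1, 20.7 and 21.3 under CKO and 11.4, 11.9 and 12.0 under WT. Fabp7 and Fabp3, carriers best known from brain and from heart, changed by 1.61 and 0.68 (limma adjusted p = 2.73e-08 and 3.45e-07). Dbi, which binds acyl-CoA, changed by -0.84. Fabp1, Fabp2, Fabp6, Pmp2 and Crabp1 were at 0 in every library.

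Around Lpl, Angptl4, a secreted inhibitor of the lipase, had 6, 4 and 1 reads in the libraries labelled CKO and 135, 126 and 132 in those labelled WT. It passed the filter only through the WT libraries, and its difference of -1.54 on the log2(FPKM + 1) scale is set by the pseudocount. A ratio of Lpl to so few reads is not given. Of 11 tested genes of this list 4 (36.4%) were higher and 5 (45.5%) lower, near the shares over all tested genes. The median was -0.10 as deposited and turned to 0.07 after median-of-ratios scaling. The heparan sulfate carriers Sdc4 and Sdc1, to which lipases can attach, rose by 1.48 and 1.23 (limma adjusted p = 4.43e-12 and 8.03e-11). Lrp1, a receptor for remnant lipoproteins, read 103 ± 5.45 FPKM under CKO and 183 ± 2.54 under WT and changed by -0.82. Gpihbp1, the endothelial anchor of the lipase, and the apolipoproteins Apoc3 and Apoa5, which regulate it, were at 0 in every library.

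Other tetraspanins were lower in 10 (71.4%) and higher in 4 (28.6%) of 14 tested, beside 50.5% and 30.5% of all tested genes. Their median was -0.43 as deposited and -0.26 after median-of-ratios scaling. Cd53, called lower and named after its values were seen, turned positive after median-of-ratios scaling. Tspan4, Tspan14 and Cd37 changed by -1.73, -1.44 and -1.06, and Tspan3 by 1.72. Cd81, a close relative of Cd9, read 7.69 FPKM under CKO and 9.01 under WT and changed by -0.21. That is little more than the 0.15 by which median-of-ratios scaling moves the median of all genes. The ratio of Cd9 to Cd81 was 10.995, 9.61 and 8.62 in the libraries labelled CKO and 21.6, 22.3 and 24.6 in those labelled WT. Of 7 galectins and partners tested 3 (42.9%) were higher and 4 (57.1%) lower, with a median of -0.48 as deposited and -0.31 after median-of-ratios scaling. Lgals1, galectin-1, read 229.8 ± 11.4 FPKM under CKO and 770.3 ± 9.60 under WT (log2 change -1.74), while Lgals9, galectin-9, read 168 ± 5.64 FPKM under CKO and 38.6 ± 0.273 under WT (log2 change 2.096). Lgals3bp, a secreted glycoprotein bound by galectin-3, read 635 ± 7.96 FPKM under CKO and 184 ± 2.74 under WT, opposite to Lgals3. The ratio of Lgals3 to Lgals1 was 5.25, 5.18 and 4.89 under CKO and 4.02, 4.10 and 4.00 under WT.

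The list for osteopontin held integrin chains, CD44, matrix proteases and related matrix proteins. Of 10 tested, 4 were higher and 5 lower, near the shares over all tested genes. After median-of-ratios scaling 3 were lower, where 38.9% of all tested genes were lower. Among the receptor chains, Itgav, Itga5 and Itgb1 were higher and Itga4, Itgb3, Itgb5 and Cd44 lower. Of these Itgav, Itgb1 and Itga4 were named after their values were seen, and Itga4 turned positive after median-of-ratios scaling. Itga5, an integrin chain that also binds fibronectin, read 123 ± 1.72 FPKM in the libraries labelled CKO and 32.0 ± 0.513 in those labelled WT. Itgb5 and Itgb3, chains that pair with the alpha-V integrin, read 11.1 ± 0.765 and 9.87 ± 0.448 FPKM under CKO, against 63.6 ± 4.57 and 28.2 ± 2.30 under WT. Thbs1, a matrix protein, rose by 1.28 on the log2 scale. Cd44 changed by -0.18, little more than the 0.15 by which median-of-ratios scaling moves the median of all genes. Spp1 to Cd44 stood in a ratio of 41.0, 40.6 and 39.8 under CKO and 53.6, 49.0 and 53.7 under WT.

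Of 7 ratios planned, 6 are given, all but that of Lpl to Angptl4, and in each of the 6 the groups did not overlap. Each gave p = 0.1 by the exact permutation test, and 0.1 after Benjamini-Hochberg adjustment over the 7, so none could pass a threshold of 0.05. The log2 difference, CKO minus WT, was -1.79 for Trem2 to Tyrobp, -1.23 for Cd9 to Cd81, -0.36 for Spp1 to Cd44 and for Plin2 to Plin3, 0.34 for Lgals3 to Lgals1 and 0.82 for Fabp5 to Fabp4.

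**Figure D4:**
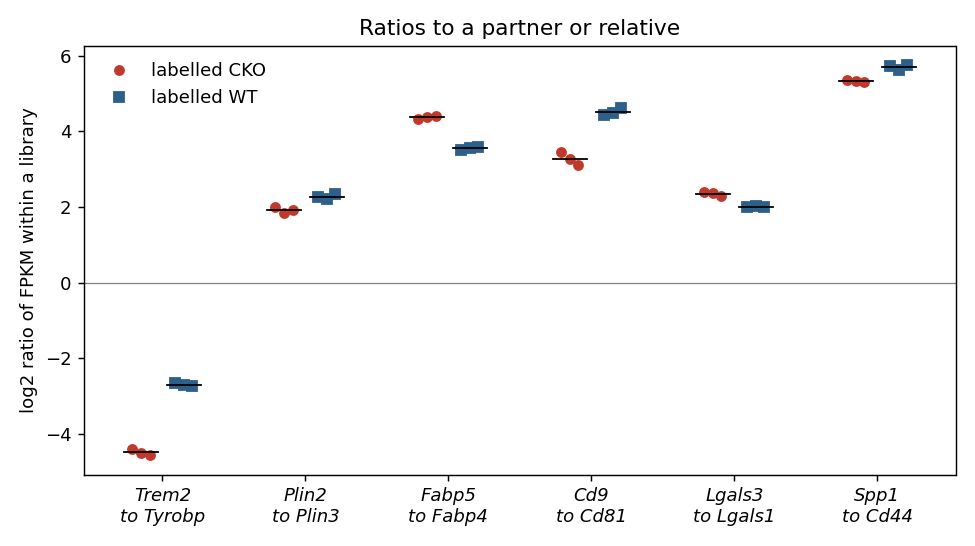
Log2 ratio of FPKM between each gene and its partner or relative within a library, for 3 libraries labelled CKO (circles, left) and 3 labelled WT (squares, right), with a line at each mean. The groups are apart for each ratio, lower in CKO for Trem2 to Tyrobp (-4.49 against -2.70) and higher in CKO for Fabp5 to Fabp4 (4.37 against 3.55).

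Transcription factors of lipid and lysosomal genes were lower in 8 (47.1%) and higher in 7 (41.2%) of 17 tested, beside 50.5% and 30.5% of all tested genes. After median-of-ratios scaling they were lower in 8 and higher in 9, where 38.9% of all 9953 tested genes were lower and 4058 higher. Pparg, a nuclear receptor for fatty acids, read 0.632, 0.681 and 0.628 FPKM in the libraries labelled CKO and 22.7, 22.5 and 22.2 in those labelled WT, a difference of -3.83 on the log2(FPKM + 1) scale. It passed the filter only through the WT libraries, so no test is given. Tfeb, a regulator of lysosomal genes, changed by -2.16 and Cebpa, a myeloid factor, by -1.91 (limma adjusted p = 3.56e-12 and 5.02e-11). Hif1a, the hypoxia factor, changed by 1.34. Mitf and Tfe3, relatives of Tfeb named after their values were seen, changed by 0.52 and 0.06, and Tfe3 was not called. Of 19 lysosomal membrane and granule genes 16 (84.2%) were lower and 2 (10.5%) higher. Their median was -0.75 as deposited and -0.58 after median-of-ratios scaling. Atp6v0d2, a proton pump subunit, read 5.96 ± 0.624 FPKM under CKO and 149 ± 3.60 under WT, and Laptm5 and Atp6v1a changed by -1.43 and -1.26. Slc15a3, a lysosomal transporter of histidine and peptides, went the other way, at 1.94.

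**Figure D5:**
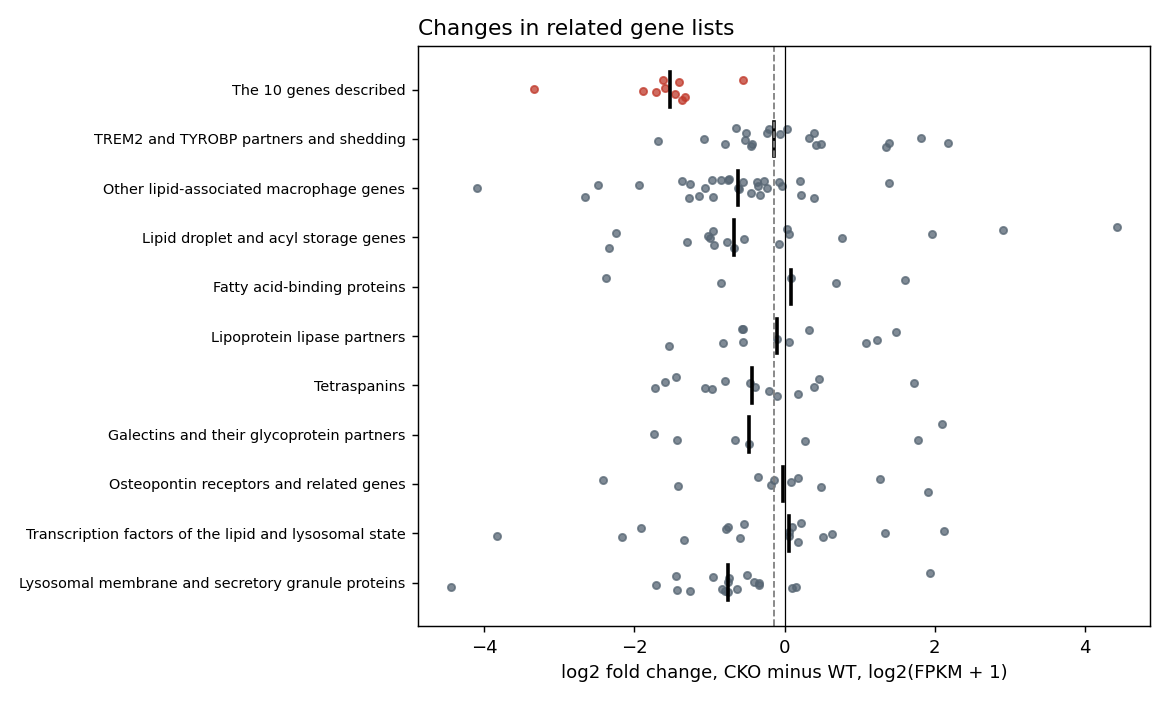
Log2 fold change, CKO minus WT, of the 10 genes (top, red) and of each tested gene in 10 related lists (grey), with a bar at each list's median and a dashed line at the median of all tested genes. The 10 genes all lie below 0 with a median of -1.53, while the related lists have medians of -0.75 to 0.08 and genes on both sides of 0.

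Over the 6 libraries, the genes with the profile most like that of Trem2 were Sesn1, Rab3il1, Slc46a3, Sorbs3 and Mrc1. Genes with clone-style symbols, such as Gm or Rik names, were left out of this choice. Likeness was the root mean square difference of log2(FPKM + 1) after centring, 0.026 for Sesn1 and 0.062 for Mrc1. It was computed for 9952 genes, those with clone-style symbols included. With 2 groups of libraries this measure mostly reads the size of the difference between them. The pseudocount shrinks that size more in these genes, which are lower under CKO than Trem2. By mean FPKM, WT over CKO, their folds in the order named were 13.0, 17.5, 15.4, 27.9 and 15.7, against 10.7 for Trem2. Sorbs3 read 0.450, 0.572 and 0.526 FPKM in the libraries labelled CKO and passed the filter only through the WT libraries. Sesn1 averaged 2.84 ± 0.113 FPKM in the libraries labelled CKO and 36.9 ± 1.11 in those labelled WT, and Mrc1, the mannose receptor, 1.88 ± 0.118 and 29.7 ± 0.853 (SD, n = 3 each).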

How the data were processed

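RNA from sorted macrophages was sequenced in 6 libraries, with groups and replicate numbers taken from the sample titles. The authors deposited 1 table per library of FPKM per gene, per the file headers. The submitters' processing notes name build mm10, HISAT2 2.1.0, featureCounts 1.6.2, fastp 0.19.3 and further tools, without their roles. Libraries came from a stranded mRNA kit, per the labels' protocols. Each table held 21936 genes. FPKM times listed length came in whole steps (tolerance 0.01 reads), from which the reads of each gene were recovered, for depth and for 1 alternative test. For a length of 1 kb, 3 reads equal 0.163 to 0.195 FPKM by library, a floor covering counting error only.

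Genes reaching 1 FPKM in 3 or more libraries entered the test on log2(FPKM + 1) with limma 3.58.1 (lmFit, eBayes with trend) in R 4.3.3, with the group as the only term. Differences are CKO minus WT on that scale, which shrinks the change of a low gene. Benjamini-Hochberg adjustment ran over all tested genes. The fit was also run on simulated reads in which few genes changed, equally in both directions. That setting differs from these data, where most genes were called, so it does not check the calls made here. Exact permutation tests, motif searches and figures used Python 3.11.15, numpy 2.4.6, pandas 2.3.3 and matplotlib 3.10.9. Named were the 10 genes and Alkbh5, Lyz2 and Apoe. From each related list, up to 4 genes with the smallest p and genes at 0 in a group were named. Also named were the 5 profiles nearest to Trem2, clone-style symbols left out. Of list genes at 0 or near it, only some are printed. The 10 genes and the lists were chosen with earlier results of these data known. Gene models came from GENCODE M21.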

Additional observations from a re-analysis of the deposited data

How the results depend on the processing

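Under 14 alternative settings (the replicate number as a block, each of the 6 libraries left out, a pseudocount of 0.1, no filter, quantile or median-of-ratios rescaling, a floor of 5 on mean FPKM, limma with its trend off and voom on recovered reads) each of the 10 genes stayed lower in the libraries labelled CKO and called, with a highest limma adjusted p of 7.57e-06. Trem2 ranged from -3.42 to -3.16 on the log2 scale and Spp1 from -0.77 to -0.36. Above that floor of 5, 3185 of 6402 were called lower, against 5031 of 9953, because fewer genes were tested. Leaving out 1 library gave 2910 to 2961 genes higher and 4853 to 4952 lower. Same-numbered libraries did not deviate together (correlations 0.0188, 0.0120 and -0.0388 for numbers 1, 2 and 3), and not every library correlated best with its own number. With so few libraries this cannot show that same-numbered libraries share nothing but a number, and the labels give no pairing. With the replicate block 3018 genes were higher and 5023 lower, and all 10 genes stayed lower. The FPKM of a gene rests on the listed length, and the Angptl4 values under the label CKO rest on 11 reads.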
